A study of Mus musculus with 26 samples.

Results

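The genes described here encode the proteins of the cytosolic ribosome. They were chosen by symbol: every probe whose gene symbol is Rpl or Rps with a number (with an optional a, x, l or y), together with Rplp0, Rplp1, Rplp2 and Rpsa. The rule found 62 genes, measured by 81 probes, of the 17899 genes and 25697 probes on the array. A probe counted as detected on an array when its deposited detection p-value was under 0.05, and a probe detected on at least 3 arrays was kept. This left 60 of the 62 genes and 74 of the 81 probes, among 10792 genes and 15061 probes in all. Rplp2, a protein of the ribosomal stalk, was detected on 1 array and was not kept. Rps4y2, which RefSeq names Rps4l, was detected on 0 arrays and was not kept. No probe of Rpl5 or Rpl11, which carry the 5S ribosomal RNA, met the rule.

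RNA came from leukocytes sorted from the femoral marrow of male SCID mice (CB17/Icr-Prkdcscid) aged 6 to 8 weeks, and amplified cDNA was hybridized to Illumina MouseRef-8 v2.0 beadchips. The mice of all groups carried the Prkdcscid mutation, which blocks the maturation of B and T cells, and a graft of human acute lymphoblastic leukemia, whose cells the sort left out. The 2 experiments each had a home cage control with 5 arrays, restraint stress with 5 arrays, and restraint stress plus propranolol (a drug that blocks beta-adrenergic receptors) with 3 arrays. The labels do not say whether each of the 26 arrays comes from a separate mouse, so the p-values below measure the spread between these arrays, which may be technical. Of the markers checked against the leukocyte label, 7 of 8 general leukocyte markers, 14 of 14 neutrophil markers and 8 of 8 monocyte markers were detected on all arrays. In bulk RNA, fewer cells of a type and less RNA per cell cannot be told apart.

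A mammalian ribosome joins a small subunit, whose proteins are named Rps and which reads the messenger RNA, to a large subunit, whose proteins are named Rpl and which forms the peptide bond. The messenger RNAs of these proteins are among the most abundant in dividing marrow cells. Most of them start with a run of pyrimidines, the 5′ terminal oligopyrimidine (TOP) tract, through which the mTOR kinase controls their translation more than their amount. Loss of a copy of several of these genes causes Diamond-Blackfan anemia in humans, a failure of red cell production in the marrow.

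The RefSeq start regions of 6 members are shown as examples. Of these, 4 (Rps6, Rps2, Rpl7a and Rps9) were low, and Rpl14 and Rplp0 high, on the same 3 arrays, described further on. Each window of build GRCm38.p6 runs from 15 bases before the annotated start to 15 after it, 5′ to 3′ on the gene's strand. Capitals mark the longest run of at least 5 pyrimidines that begins with C within 5 bases of the start.
Rps6 (chr4:86857353-86857382, minus strand): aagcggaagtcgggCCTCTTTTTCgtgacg
Rps2 (chr17:24720048-24720077, plus strand): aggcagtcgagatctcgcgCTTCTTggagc
Rpl7a (chr2:26910792-26910821, plus strand): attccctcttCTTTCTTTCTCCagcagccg
Rps9 (chr7:3704026-3704055, plus strand): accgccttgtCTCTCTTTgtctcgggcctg
Rpl14 (chr9:120571502-120571531, plus strand): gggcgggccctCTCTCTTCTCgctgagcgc
Rplp0 (chr5:115559452-115559481, plus strand): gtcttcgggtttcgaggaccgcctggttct
Such a run was present for 25 of the 50 members with a promoter in the RefSeq table, or 50%, against 21.2% of the 27025 genes in it. A C at the first annotated base with at least 4 pyrimidines behind it was found for 9 of 50 members (18%) and 3.01% of all genes. Annotated starts can lie some bases from the main start, and Rplp0 has no such run in this window. The windows shown do not stand for all members low on the 3 arrays. Of those with a promoter, 6 of 16 had such a run, against 18 of 33 of the other kept members. Within 250 bases before to 50 after the start, on either strand, the letters CGGAAG, which Ets family factors recognize, occurred for 34 of 50 members (68%) and 18.8% of all genes. The letters GGGCGG, the core of an Sp1 box, occurred for 33 members (66%) and 38.2% of all genes. TATAAA occurred for 6 members (12%) and 15.7% of all genes.

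No member gene passed the test in any comparison of the 3 conditions. Values are log2 intensities after background correction and quantile normalization, and the probe with the highest mean stands for its gene. A gene was called when limma's p-value, adjusted by Benjamini-Hochberg over all 15061 probes, was under 0.05. Between restraint and control, 0 of 60 members were called, where 2.23% of all genes tested were (241 of 10792). Between restraint with propranolol and restraint, 0 of 60 members and 0% of all genes were called. Between restraint with propranolol and control, 0 of 60 members and 3.8% of all genes (410) were called. At an unadjusted limma p under 0.05, 1 of 60 members passed in each comparison, against 14.8%, 6.12% and 19% of all genes in the same order. Within experiment 1, 0 members were called, against 0.324% of all genes for restraint minus control, 0% for restraint with propranolol minus restraint and 0.602% for restraint with propranolol minus control. Within experiment 2, 0 members were called, against 0.0185%, 0% and 0.917% in the same order. For the difference between the experiments 0 members and 0% of all genes were called.

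At an unadjusted limma p under 0.05, the members again stayed below the share of all genes. Within experiment 1, 0 members passed in each comparison, against 10%, 2.38% and 9.6% of all genes in that order. Within experiment 2, 1, 1 and 2 members passed, against 8.38%, 10.6% and 16.2%. For the difference between the experiments 0, 0 and 1 members passed, against 3.29%, 5.13% and 5.3%. For 0 of 60 members did the arrays of 2 conditions of an experiment fall without overlap. Over all genes that happened for 3.42% (restraint and control), 4.46% (restraint with propranolol and restraint) and 11.8% (restraint with propranolol and control) in experiment 1, and for 1.66%, 2.54% and 7.13% in experiment 2.

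The data bound most of these changes rather than leave them unknown. The 95% interval of the change between restraint and control lay within 0.5 on the log2 scale, either way, for 37 of 60 members and within 1 for 57 of 60. For restraint with propranolol against restraint, the interval stayed within 0.5 for 37 members, and against control for 34. Rps14, a small subunit protein whose loss is known from the 5q- syndrome in humans, had one of the narrowest intervals. Its log2 change between restraint and control was 0.02 (95% interval -0.13 to 0.17), on arrays that read from 11.46 to 11.77 in control, 11.53 to 11.78 in restraint and 11.48 to 11.79 with propranolol. The 3 conditions overlapped over nearly their whole range for this gene.

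The small unadjusted differences leaned upward between restraint and control. Of 60 members, 47 had a positive log2 change, with a median of 0.10, against 49.4% positive and a median of 0.00 over all genes tested. Of the 34 large subunit genes 24 were positive (median 0.08), and of the 26 small subunit genes 23 were (median 0.13). The lean was present in experiment 1, with 43 of 60 positive, and in experiment 2, with 45 of 60. Within single slides that held both conditions it was 39 of 60 on slide 1 (3 restraint and 5 control arrays, median 0.04). On slide 3 it was 41 of 60 (5 restraint and 2 control arrays, median 0.16). Slide 1 held experiment 1 control replicate 5, and slide 3 held experiment 2 control replicate 4 and restraint replicate 4. These arrays were low in the members, as described next. The mean over the members per array was 9.55 ± 0.22 (SD, n = 10) in control, 9.64 ± 0.12 in restraint and 9.64 ± 0.09 (n = 6) with propranolol, so the condition means lay closer together than the control arrays did.

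That lean was smaller without 3 arrays. On experiment 1 control replicate 5, experiment 2 control replicate 4 and experiment 2 restraint replicate 4 the member mean was 9.17, 9.17 and 9.38, against 9.48 to 9.79 on the other 23. Without these arrays 35 of 60 members had a positive change between restraint and control, with a median of 0.02. Over all genes 49.2% were positive, with a median of 0. Of the members 0 of 60 were called, where 2.31% of all genes were. In the same order as before, 0 members were called in the comparisons with propranolol, against 0.0278% and 4.13% of all genes. Leaving out low control arrays was bound to lower the change, since the 3 arrays were singled out after their values were seen. They were also low in detected probes, with 44.6%, 42.5% and 42.6% of all probes detected against 45.7% to 51.2% on 22 of the other arrays. The array with the fewest, experiment 2 restraint with propranolol replicate 3 at 39.5%, had a member mean of 9.58. Over the 26 arrays, which share the normalization, the deviations of the member mean and of the percent detected from their group means had a Pearson r of 0.74, and 0.30 over the 23 arrays left without those 3. For 29 of 60 members this r was above 0.5, against 14.3% of all genes tested, and for 4 it was below -0.5, against 13.3%.

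**Figure D1:**
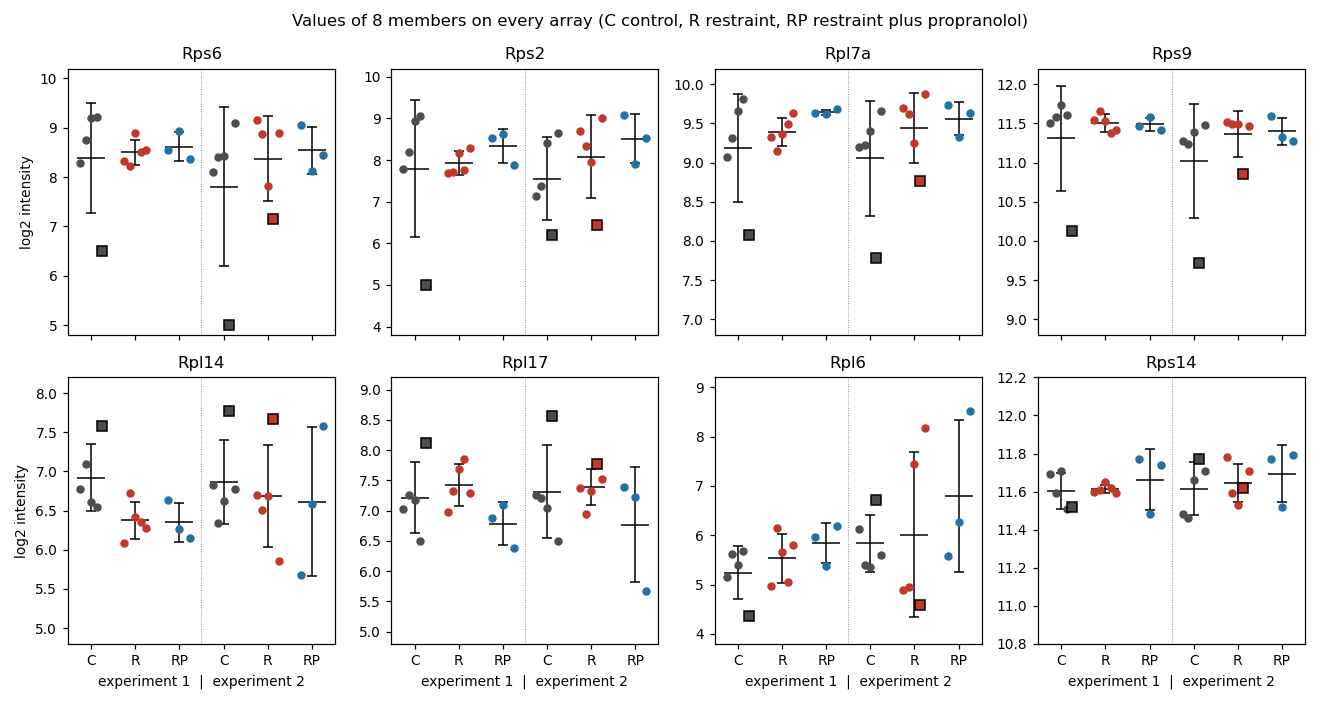
Log2 intensity of 8 members on every array, by group, with the group mean and SD as bars. Squares are the 3 arrays that stand apart, and they are the lowest of their group for Rps6, Rps2, Rpl7a and Rps9, the highest for Rpl14 and within 0.3 of the other arrays' mean for Rps14.

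Rps6, the small subunit protein that S6 kinase phosphorylates downstream of mTOR, shows what happened on these arrays. In experiment 1 control it read 8.28, 8.75, 9.19, 9.21 and 6.50. In experiment 2 control it read 8.10, 8.41, 8.43, 5.00 and 9.10, where the array that read 5.00 did not detect it and gives only a bound. Each control group had 1 array far below the other 4. Under restraint Rps6 read 8.33, 8.22, 8.90, 8.50 and 8.55 in experiment 1 and 9.15, 8.87, 7.81, 7.14 and 8.90 in experiment 2. With propranolol it read 8.54, 8.94 and 8.36 in experiment 1 and 9.05, 8.13 and 8.44 in experiment 2. Apart from 7.81 and 7.14 under restraint in experiment 2, the restraint and propranolol arrays lay in the range of the upper control arrays of both experiments, 8.10 to 9.21. The fitted change between restraint and control was 0.34 (SE 0.39, limma adjusted p = 0.762), the largest positive value of any member, and it was -0.11 (SE 0.20) without the 3 arrays.

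Rps2, which lies near the messenger RNA entry site of the small subunit, had the widest spread of all members. In experiment 1 control it read 7.79, 8.20, 8.94, 9.06 and 4.99, and in experiment 2 control 7.13, 7.38, 8.40, 6.20 and 8.65. Restraint arrays read 7.68, 7.71, 8.17, 7.76 and 8.30 in experiment 1 and 8.69, 8.34, 7.95, 6.44 and 9.01 in experiment 2. With propranolol it read 8.54, 8.62 and 7.88, and then 9.09, 7.91 and 8.53. The array that read 4.99 did not detect Rps2 and gives only a bound, below every array of the other conditions. The change of Rps2 between restraint and control was 0.33 (SE 0.40, limma adjusted p = 0.773), and -0.01 without the 3 arrays.

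The same arrays were low for a large set of members and high for a small one. On all 3, 17 of 60 members (28.3%) lay more than 0.5 below the mean of the other arrays of their group, a pattern that 5.85% of all genes tested showed. Among them were Rps2, Rps3, Rps4x, Rps6, Rps7, Rps9, Rps12, Rps13, Rps15, Rps16, Rpl7a, Rpl7l1, Rpl18, Rpl24, Rpl27 and Rpl27a, named because they met this pattern. That is 11 of 26 small subunit genes and 6 of 34 large subunit genes. The 3 arrays were picked for their member values, so a share above that of all genes was built into the choice. Rps13, which sits at the interface of both subunits, differed from its group by -1.89, -2.44 and -1.09, in the order in which the arrays are named above. Rps7, a Diamond-Blackfan gene, differed by -1.29, -2.28 and -1.37. The differences of Rps6 were -2.36, -3.51 and -1.54, and those of Rps2 -3.50, -1.69 and -2.06. The values of -3.51 and -3.50 come from arrays that did not detect the gene, so they are no exact differences and have no rank.

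Rpl14 and Rplp0 were the 2 members more than 0.5 above their groups on all 3 arrays, a pattern of 6.3% of all genes. Rpl14, a large subunit protein, read 7.58, 7.77 and 7.67 there, while the other control and restraint arrays read between 5.86 and 7.09. The propranolol arrays read 5.68 to 7.58, and the highest of them, experiment 2 replicate 3, was as high as the 3 arrays. Rpl17, which lines the peptide exit tunnel, read 8.12, 8.57 and 7.77. It lay 1.14, 1.57 and 0.48 above its groups, so it missed the limit of 0.5 on the last array. Experiment 1 restraint replicate 4, not among the 3, read 7.85. Rps14, Rpl3 and Rpl41 stayed within 0.3 of their groups on each of the 3 arrays, so the members did not move as a block. Of the kept members with a RefSeq promoter, 6 of 16 in the low set and 18 of 33 of the others had a pyrimidine run at the start, and 11 of 16 and 22 of 33 held CGGAAG.

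**Figure D2:**
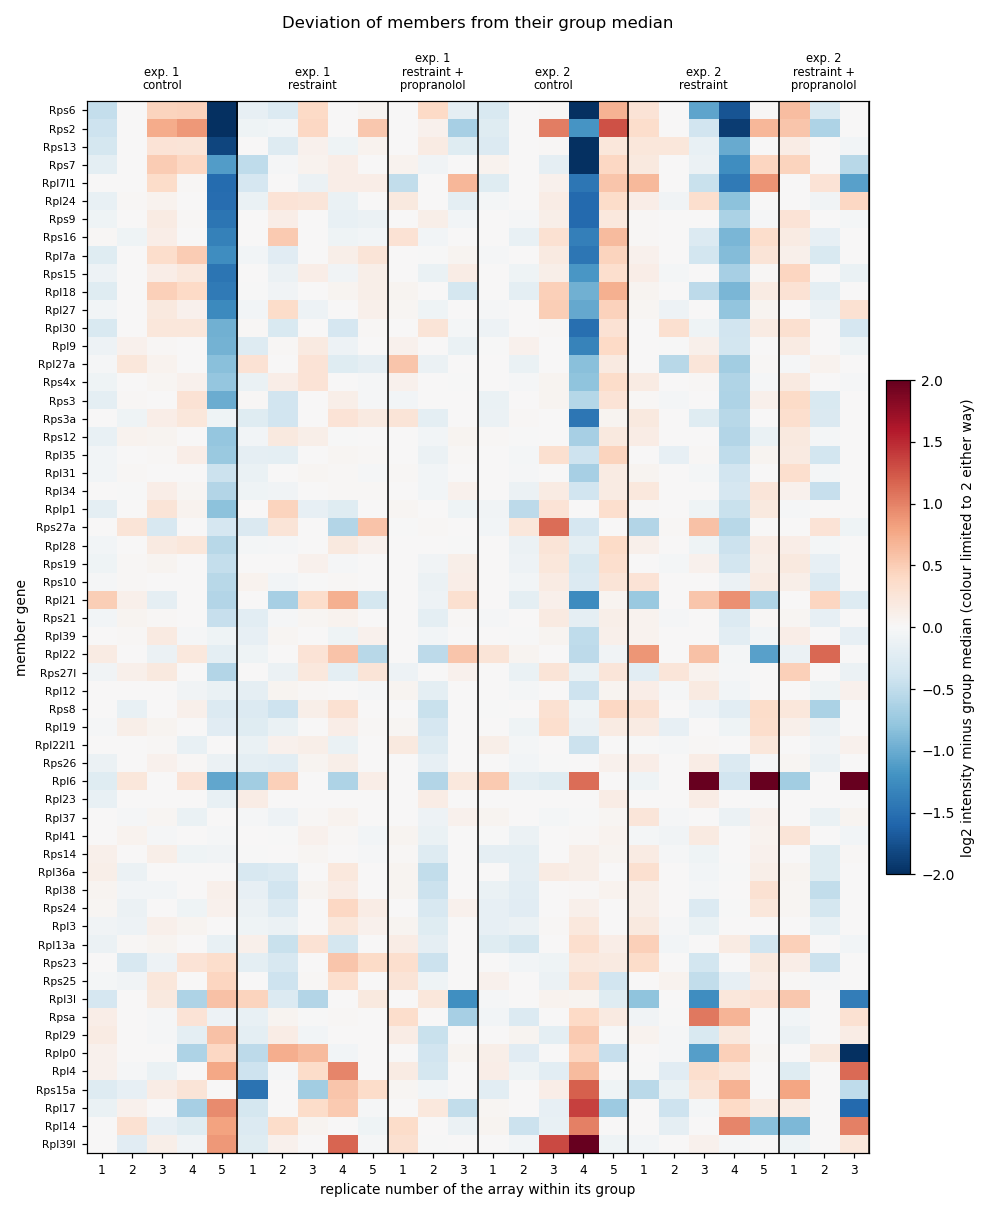
Deviation of 58 of the 60 members (rows) on each array (columns, by group) from the median of its group, in log2 units, with colour limited to 2 either way. Rows are ordered by their mean deviation on the 3 arrays that stand apart, which appear as blue columns in the upper rows and red in the lowest rows.

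Markers of cell types differed between conditions and on these arrays. The mean log2 intensity of 8 general leukocyte markers was 9.69, 9.83 and 10.09 on the 3 arrays, below the 10.17 to 10.62 of the other 23. The mean of 16 erythroid markers was 8.06 and 6.29 on the 2 control arrays, inside the control range of 5.52 to 9.11, and 7.06 on the restraint array, the highest of the 10 restraint arrays. All 16 erythroid changes with restraint were negative and 9 were called. Their mean was 7.74 ± 1.30 (SD, n = 10) in control, 5.96 ± 0.57 in restraint and 5.99 ± 1.15 (n = 6) with propranolol. For 10 B lineage markers, 2 of them called lower with restraint, the means were 6.28 ± 0.75, 5.41 ± 0.19 and 5.33 ± 0.27. Their part in the member values was not tested.

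**Figure D3:**
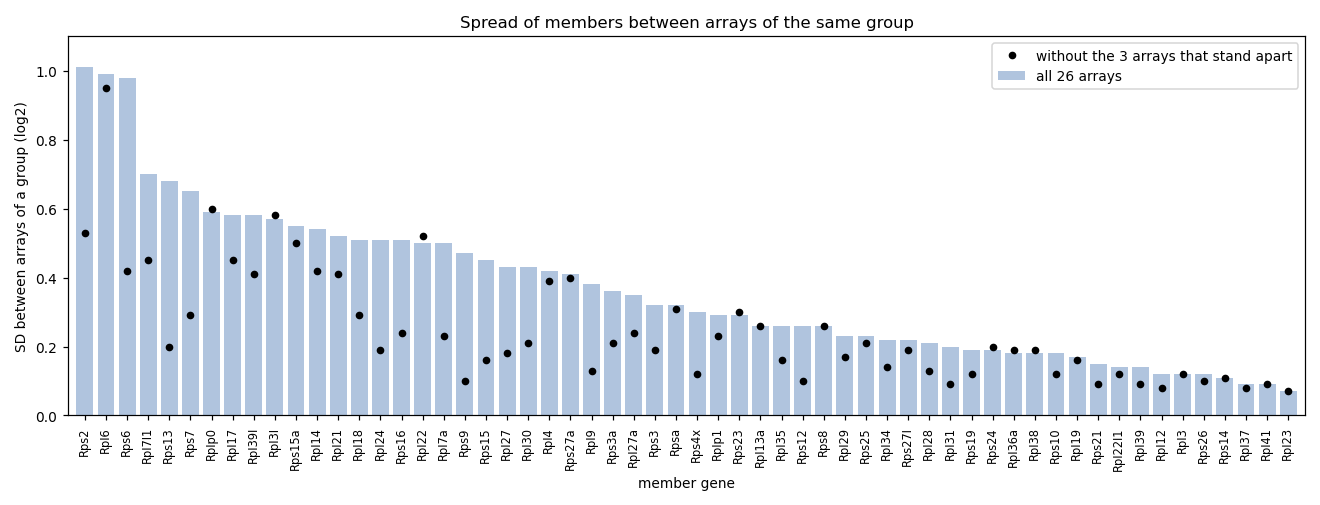
SD of 58 of the 60 members between arrays of the same group, pooled over the 6 groups, from all 26 arrays (bars) and without the 3 arrays that stand apart (points). The bars run from 0.07 for Rpl23 to 1.01 for Rps2, and the median over all 60 falls from 0.31 to 0.19 without those arrays.

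The spread between arrays of a group differed widely among members. It ran from 0.07 for Rpl23 to 1.01 for Rps2, with a median of 0.31 against 0.38 over all genes tested. Leaving out the 3 arrays brought the member median to 0.19. The error over the beads of 1 array had a median of 0.037 in log2 units. It was taken relative to raw signal, before background correction, so it is not directly comparable with this spread. Over 1770 pairs of members, the deviations from the group means had a median Pearson r of 0.22 across the 26 arrays (range -0.82 to 0.97). Of these pairs 32.5% had r above 0.5 and 6.72% below -0.5, and without the 3 arrays 19.6% and 0.96%, while the median r was again 0.22. The arrays share normalization and detection rate, so these are descriptions.

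Rpl23 is a large subunit protein that also binds Mdm2. Its brightest probe, which stands for the gene here, could hardly show a change on this scale. It was the brightest of all on 7 arrays and the second brightest on 19, and quantile normalization gives a probe at these ranks 1 of 2 values. The raw signal of this probe ranged from 10748 to 18458. Over the 4 kept probes of the gene, the log2 change between restraint and control ranged from -0.03 to -0.01. With median scaling in place of quantile normalization the log2 changes of the brightest probe were 0.06 between restraint and control and 0.11 between restraint with propranolol and control.

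Different probes of 1 gene did not always move together. For Rps9, a small subunit protein that binds ribosomal RNA early in assembly, both probes were low on the 3 arrays: the brighter differed from its group by -1.48, -1.62 and -0.64 and the dimmer by -2.23, -1.43 and -1.12. Both probes of Rps3, a protein of the messenger RNA entry channel, were also below their groups, with differences from -1.03 to -0.23. Its dimmer probe differed by only -0.23 on experiment 2 control replicate 4, so it missed the limit of 0.5 there. For Rpl27a, of the low set, the brighter probe differed by -0.91, -0.84 and -0.63 and the dimmer by only -0.08, -0.1 and -0.35. For Rpl7l1, a paralog of Rpl7, the brighter probe differed by -1.64, -1.55 and -1.70 and the dimmer by 0.82, 0.93 and 0.72. The brighter probe was not detected on experiment 2 control replicate 4, so its -1.55 is no exact difference. Rpl31, a large subunit protein, split in the same way, with differences of -0.70 to -0.38 for 1 probe and 0.53 to 0.79 for the other. The deposited annotation does not tell whether such probes read different transcripts or pseudogene copies, so the values of these members hold for the brighter probe. Between restraint and control, Rpl31 had the widest range of log2 change over its probes (-0.25 to 0.09), followed by Rpl21 (-0.18 to 0.05) and Rps24 (-0.14 to 0.01).

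**Figure D4:**
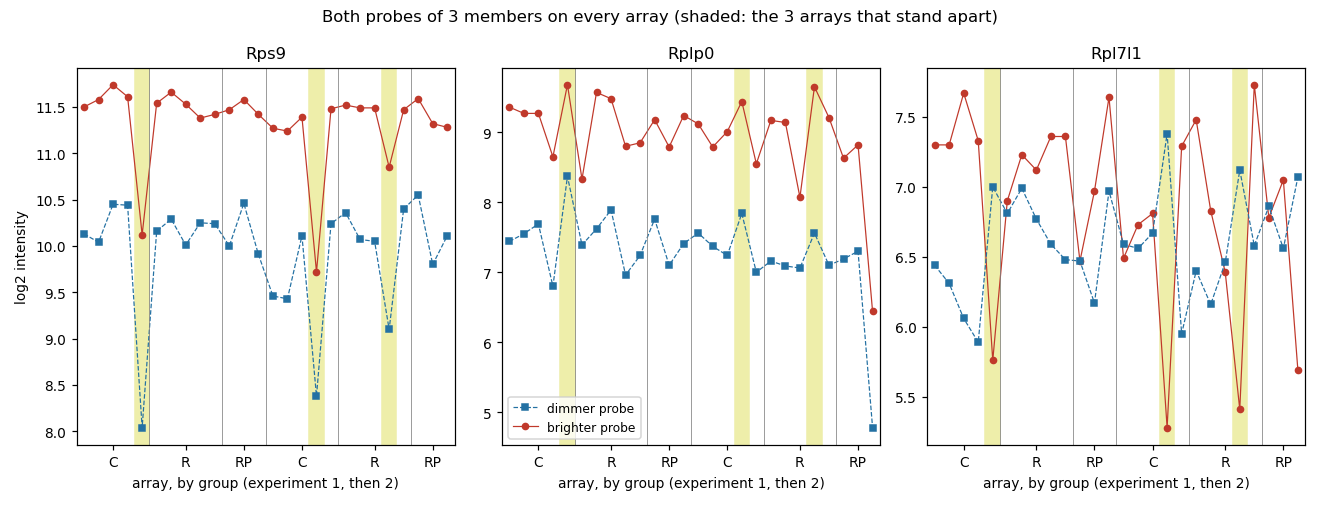
Log2 intensity of both kept probes of Rps9, Rplp0 and Rpl7l1 on all 26 arrays, ordered by group (C control, R restraint, RP restraint plus propranolol), with the 3 arrays that stand apart shaded. The probes of Rps9 and of Rplp0 move together, and those of Rpl7l1 move in opposite directions on the shaded arrays.

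Of the small subunit, Rps15a had the most negative value, with a log2 change of -0.37 (SE 0.22, limma adjusted p = 0.502) between restraint and control, where control arrays read 6.20 to 7.92 and restraint arrays 4.96 to 7.11. Rps15 and Rps9 had changes of 0.27 each, which were 0.06 and 0.02 without the 3 arrays.

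Of the large subunit, Rpl17 was the 1 member with an unadjusted p under 0.05 between restraint with propranolol and restraint. Restraint arrays read 6.97, 7.32, 7.68, 7.85 and 7.29 in experiment 1 and 7.37, 6.95, 7.33, 7.77 and 7.53 in experiment 2. Arrays with propranolol read 6.88, 7.09 and 6.39, and then 7.39, 7.23 and 5.67. All 6 were below the restraint mean of their experiment, and the groups overlapped in both. The log2 change was -0.63 (95% interval -1.19 to -0.08, limma adjusted p = 0.767), and -0.40 without experiment 2 propranolol replicate 3. Rpl14 had a change of -0.36 (SE 0.22) between restraint and control, and Rpl4, a protein of the tunnel wall, one of -0.18 (SE 0.18), which was -0.10 without experiment 1 control replicate 5 and -0.06 without the 3 arrays. Rpl7a, a large subunit protein, had a change of 0.30 (SE 0.21), and 0.07 without the 3 arrays.

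Rpl6, a large subunit protein, was detected on 21 arrays, dim on most and high on 3. In experiment 2 it read 4.88, 4.96, 7.45, 4.58 and 8.18 under restraint and 5.57, 6.27 and 8.52 with propranolol, while all 10 control arrays lay between 4.36 and 6.71. The high arrays are spread over both treated groups. Its log2 change was 0.23 (SE 0.40) between restraint and control and 0.78 (SE 0.46, limma adjusted p = 0.377) between restraint with propranolol and control. The latter was 0.38 without experiment 2 propranolol replicate 3.

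The ribosomal stalk recruits the GTPases of translation, and Rplp0 is its base. Rplp0 had the most negative change of any member between restraint with propranolol and control, at -0.60 (SE 0.30, limma adjusted p = 0.292). With propranolol it read 9.18, 8.79 and 9.24 in experiment 1 and 8.63, 8.82 and 6.44 in experiment 2, against 8.55 to 9.68 in control. The array that reads 6.44 sets the change, which was -0.20 without it. This array, experiment 2 propranolol replicate 3, had the fewest detected probes of all arrays, at 39.5%. In the fit with array weights it had the lowest weight, at 0.15. It also gave the lowest value of Rpl17 (5.67) and the highest of Rpl6 (8.52) on any array. The highest propranolol value of Rpl14 (7.58) came from this array too. The second probe of Rplp0 was also lowest there, at 4.78 against 6.80 to 8.37 on the other 25 arrays. Rplp1, another stalk protein, differed little, with a change of 0.07 (SE 0.13) between restraint and control and 0.12 (SE 0.15) between restraint with propranolol and control. Rplp0 serves as a reference gene in many PCR assays, and Rpl13a, used in the same way, had a change of -0.13 (SE 0.12) with restraint.

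**Figure D5:**
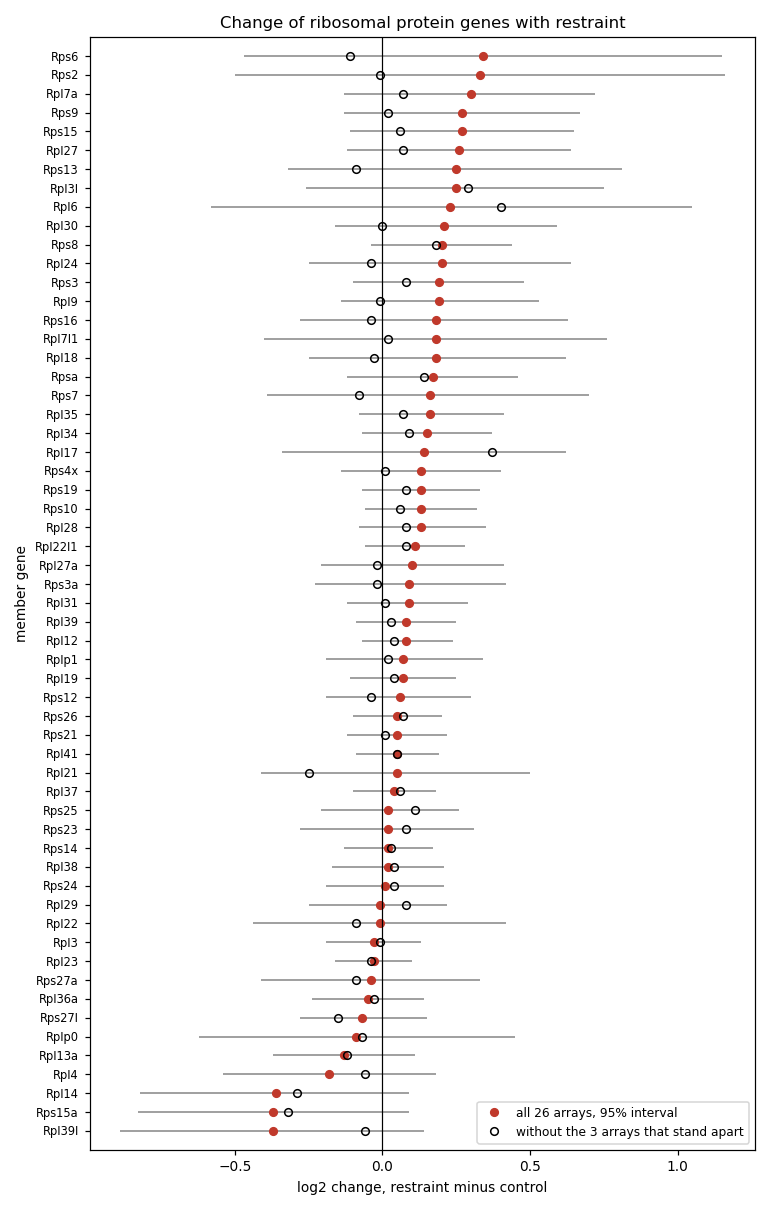
Log2 change of 58 of the 60 members between restraint and control with its 95% interval from the fit on all 26 arrays (red), and the change without the 3 arrays that stand apart (open circles). The members with the largest positive values, Rps6 and Rps2, lie at -0.11 and -0.01 without those arrays.

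Of the genes listed for Diamond-Blackfan anemia in humans, 10 were measured here, and 0 were called. Over all genes, 2.23% were called between restraint and control, 0% between restraint with propranolol and restraint, and 3.8% between restraint with propranolol and control. The median log2 change of the 10 between restraint and control was 0.13, with 9 positive, against 49.4% positive over all genes. Without the 3 arrays the median was 0.05, with 7 positive. Rps19, the gene most often mutated in the disease, read 11.07 to 11.71 in control and 11.28 to 11.77 under restraint, with a change of 0.13 (SE 0.10, limma adjusted p = 0.595). Rps24, Rps26 and Rps10, small subunit genes of the same list, had changes of 0.01 (SE 0.10), 0.05 (SE 0.07) and 0.13 (SE 0.09). Rps15a was the 1 gene of the list with a negative change, at -0.37 (SE 0.22), and -0.32 without the 3 arrays. Rpl35, Rpl27 and Rpl18, of the large subunit, had changes of 0.16 (SE 0.12), 0.26 (SE 0.18) and 0.18 (SE 0.21), which were 0.07, 0.07 and -0.03 without the 3 arrays. Rpl27 and Rpl18 belong to the set that was low on the 3 arrays.

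Of 5 paralogs of ribosomal protein genes 0 were called, where 2.23%, 0% and 3.8% of all genes were in the same order. Rpl22l1, a paralog of Rpl22, read 9.10 to 9.64 in control, 9.43 to 9.81 under restraint and 9.24 to 9.70 with propranolol. Its change with restraint was 0.11 (SE 0.08, limma adjusted p = 0.597). Rps27l, a target of p53, had a change of -0.07 (SE 0.10). Rpl3l, known from heart and skeletal muscle, was detected on all arrays, with a change of 0.25 (SE 0.25). Rpl39l, known from testis, was detected on 3 of 10 control arrays, 1 of 10 restraint arrays and 0 of 6 arrays with propranolol, and its highest values were 6.90 and 5.91 in experiment 2 control. Rpsa, the laminin receptor precursor, was detected on 6 arrays and Rps27a, a fusion of ubiquitin with a ribosomal protein, on 15, so their probes give little information.

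Translation factors, other TOP messenger RNAs, ribosome biogenesis genes and mitochondrial ribosomal proteins were called at shares near or below those of all genes, which were 2.23% between restraint and control, 0% between restraint with propranolol and restraint, and 3.8% between restraint with propranolol and control. Of 38 translation factors 0 were called in any comparison, and of 17 other TOP messenger RNAs 0 were. The mean log2 intensity of these 17 was 9.60, 9.75 and 9.72 on the 3 arrays that were low in the members, against 9.90 to 10.24 on the other 23. Of 86 genes of ribosome biogenesis, 2 were called, both lower in restraint with propranolol than in control: Riok2, a kinase of small subunit maturation, with a log2 change of -0.75 (SE 0.18, limma adjusted p = 0.0188), and Rpf2, a factor of 5S particle assembly, with -0.70 (SE 0.17, adjusted p = 0.0219). Of 73 mitochondrial ribosomal proteins, 1 was called in the same comparison, Mrpl49 at -0.92 (SE 0.15, limma adjusted p = 0.000538). Of 9 genes of the Myc network, which drives ribosome production, Myc fell by 1.08 (limma adjusted p = 0.0216) and Mxd1, a repressor of Myc targets, rose by 0.92 (adjusted p = 0.00957) in that comparison. Of 20 genes of the S6 kinase and mTOR pathway, Ddit4, an inhibitor of mTOR, rose by 0.71 with restraint (limma adjusted p = 0.0457). Of 4 genes of the ribosomal stress response measured, Cdkn1a, a p53 target, rose by 0.69 with restraint (limma adjusted p = 0.0309) and by 0.89 with propranolol against control (adjusted p = 0.00944), and Mdm2 by 0.31 in the latter (adjusted p = 0.0432). These comparisons share control arrays, and condition was partly confounded with slide. In experiment 1 all control arrays were on slide 1 and all propranolol arrays on slide 2. In experiment 2, propranolol replicates 2 and 3 were alone on slide 4. Between those arrays condition and slide cannot be told apart. With slide as a fixed term the 410 genes called between restraint with propranolol and control became 23.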

How the data were processed

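Per the file headers, the raw matrix that the authors deposited holds for each probe and array a mean bead intensity, without background subtraction or scaling, a detection p-value, a bead error and a bead number. GenomeStudio is the tool that the submitters' processing notes name. The matrix also holds 24 measurement columns of 6 arrays with no labelled sample, and they were not used. The normalized intensity matrix that the authors deposited served as an alternative.

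Intensity was background-corrected, quantile normalized and logged with limma's neqc (offset 16, negative controls inferred from detection p-values). Models with condition and experiment, and with all 6 groups, were fitted to 15061 probes, with moderated variances and Benjamini-Hochberg adjustment. The number of arrays limits the precision. Sequences come from RefSeq, GRCm38.p6. The fit was tested on simulated data. Fits used limma 3.58.1 under R 4.3.3, and figures matplotlib 3.10.9 under Python 3.11.15. Members and gene lists were chosen with earlier results of these data known. Members named in full are those called, the 5 largest changes in each direction per comparison, members of fixed lists, and the 3 whose probes differ most. Rps3, Rps13, Rpl23 and those named for the 3 arrays were chosen after their values were seen. Alternatives covered normalization, filters, probe choice, slide, array weights, a replicate block and leaving out arrays. Some members are counted but not reported here by name or drawn.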

Additional observations from a re-analysis of the deposited data

Results flagged for a closer look

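In each group of 5 arrays, the highest and the lowest array were compared with the nearest other by Dixon's criterion (critical value 0.71), which chance exceeds for about 1 group in 20. Over the 60 members and their mean, 57 of 244 checks exceeded it, and 46 of these were on the 3 arrays that stand apart, 44 of them low. Those arrays were picked for their member values, and members vary together, so the checks are not independent. The share over all genes was not computed, so these counts are descriptions. The values below are those of the member mean and of the members the naming rule covers, which gave 30 of 132. Rpl23 counts among the 57 but is left out of the values below, because it takes only 2 values.

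On experiment 1 control replicate 5 the member mean was low at 9.17. Low values on that array were 9.47 for Rpl27, 10.90 for Rpl31, 10.64 for Rpl35, 5.76 for Rpl7l1, 9.36 for Rps10, 8.84 for Rps15, 7.62 for Rps16, 11.17 for Rps19 and 10.12 for Rps9, and Rpl4 was high at 9.41. On experiment 2 control replicate 4 low values were 4.40 for Rpl21, 9.10 for Rpl22l1, 10.54 for Rpl31, 7.78 for Rpl7a, 9.0 for Rps15, 5.00 for Rps6, 6.38 for Rps7 and 9.72 for Rps9, and Rps15a was high at 7.92. On experiment 2 restraint replicate 4 low values were 9.97 for Rpl27, 10.95 for Rpl31, 9.70 for Rps15 and 10.85 for Rps9.

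Elsewhere, Rpl22l1 was low at 9.38 on experiment 1 control replicate 4 and high at 9.81 on experiment 2 restraint replicate 5. Rpl39l was high at 5.82 on experiment 1 restraint replicate 4, and Rps16 at 9.01 on experiment 1 restraint replicate 2. Rpl3l was low at 8.59 on experiment 2 control replicate 5, and Rps7 at 8.23 on experiment 1 restraint replicate 1.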

How the results depend on the processing

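The count of called members was 0 under all 38 alternatives in each comparison, with adjusted p-values no lower than 0.162, 0.455 and 0.129 (restraint minus control, restraint with propranolol minus restraint, and restraint with propranolol minus control). The member median ranged from 0.02 to 0.13, from -0.04 to 0.08 and from 0.01 to 0.16, which is less than the SD of the member mean between arrays of a group (0.17). With 1 array left out at a time it ranged from 0.04 to 0.12, from -0.02 to 0.03 and from 0.05 to 0.10. The labels do not say whether the same replicate number in different groups pairs arrays. Of 22 such pairs, 4 deviated together with r above 0.1, which cannot settle it. The replicate block gave medians of 0.10, -0.04 and 0.07, with 0 members called. The number of all genes called between restraint and control, 241, was 78 with slide as a fixed term and 713 with array weights. For restraint with propranolol minus control, 410 became 23 and 928.

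Over the members with the largest changes, 12 of 1138 values had the opposite sign. Between restraint and control, Rps6 had 0.00 (just below 0) without experiment 2 control replicate 4 and up to 0.47 without another array (experiment 2 control replicate 5). Without the 4 arrays with under 45% of probes detected, an alternative added after seeing the data, Rps6 had -0.11 and Rps2 -0.01, and the same values without the 3 arrays that stand apart, also added later. Between restraint with propranolol and restraint, Rpl4 had -0.17 with slide as a fixed term, and without the 4 arrays Rpl3l had 0.03 and Rpl6 -0.01. Between restraint with propranolol and control, Rps6 had -0.03 with array weights, -0.09 without the 4 arrays and -0.11 without the 3, and Rpl17 had 0.01 without the 4. Signal near background limits Rpsa, Rpl39l, Rps27a, Rpl21 and Rpl6.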
